A study of Sus scrofa with 6 samples.

Results

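Back muscle (longissimus dorsi) was examined for the genes that set how many mitochondria a muscle fibre makes. The 10 mitochondrial biogenesis regulators were chosen by name from a list of coactivators, nuclear receptors, nuclear respiratory factors and mitochondrial transcription genes, *PPARGC1A*, *PPARGC1B*, *ESRRA*, *ESRRG*, *NRF1*, *GABPA*, *TFAM*, *TFB1M*, *TFB2M* and *POLRMT*, and all 10 were found by symbol among the 30476 Ensembl pig genes of the count table. The samples were 3 pigs with an adipocyte-specific knock-in of UCP1 (UCP1 KI), made with CRISPR/Cas9, and 3 wild-type (WT) pigs, each 6 months old, with 1 mRNA library per pig. The knock-in is directed to adipocytes, so muscle fibres are not its target, and the promoter, the sex and the litter of the pigs are not given in the sources used here. The gene name table held no pig identifier for *UCP1*, so its counts were not read and the genotype was not checked. The study reports that it detected no *UCP1* mRNA in muscle of either genotype, so muscle counts would not be a check of genotype.

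Mitochondria hold proteins made from both the nuclear and the mitochondrial genome, and biogenesis depends on factors that keep both in step. PGC-1α (*PPARGC1A*) and PGC-1β (*PPARGC1B*) do not bind DNA themselves but dock on the estrogen-related receptors and the nuclear respiratory factors and raise the transcription of respiratory chain genes. Among the targets of these factors are *TFAM*, *TFB1M* and *TFB2M*, whose proteins enter the mitochondrion, and there TFAM and TFB2M work with the RNA polymerase POLRMT to transcribe mitochondrial DNA. In skeletal muscle PGC-1α is known for its response to exercise and for its place in oxidative, slow fibres.

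Each value below is a count scaled to a total of 1000000 per pig with TMM factors (CPM). The counts on genes summed to between 30220951 and 35066624 per pig, and the counts of the 10 regulators lay between 16 and 1206, all above 3, the number that a library with no count of a gene still allows. The 13 genes of mitochondrial DNA took between 22.3% and 40.7% of all counts, with the highest share in WT replicate 2. A gene was called where edgeR's quasi-likelihood test gave an unadjusted p under 0.05 and the log2 fold change (UCP1 KI against WT) was above 0.5 in size, the limits of the study. Across the 13402 genes tested, 8.19% were called in either direction and 3.84% as higher in UCP1 KI pigs, while 0 had an adjusted p under 0.05 with Benjamini-Hochberg adjustment (1100 had an unadjusted p under 0.05). Complete separation of the groups was found for 15.3% of the genes tested, and for 7.59% with every UCP1 KI pig above every WT pig. Since lengths of the transcripts were not used here, levels are compared between pigs and not between genes.

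Of the 10 regulators, 0 were called, and 0 had an unadjusted p under 0.05 in edgeR or in DESeq2 on the same genes. Their log2 fold changes lay between -0.38 and 0.62, with 6 above 0 and 4 below, and a median of 0.10 beside -0.02 over all genes tested. Adjusted p values (edgeR) ran from 0.660 for *ESRRA* to 0.970 for *TFB2M*. *POLRMT* was the regulator whose groups did not overlap, and the other 9 overlapped. Taken without sign, the regulators' log2 fold changes had a median of 0.29, beside 0.33 for all genes tested. With library size only in place of TMM factors, 7 regulators were above 0 and their median was 0.32, while the median of all genes moved to 0.24. With 3 pigs per genotype, the standard errors of these log2 fold changes were between 0.22 and 0.63, and the 95% intervals of 6 genes held a 2-fold difference, whereas those of *NRF1*, *TFB1M*, *TFB2M* and *POLRMT* did not reach that size.

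**Figure D1:**
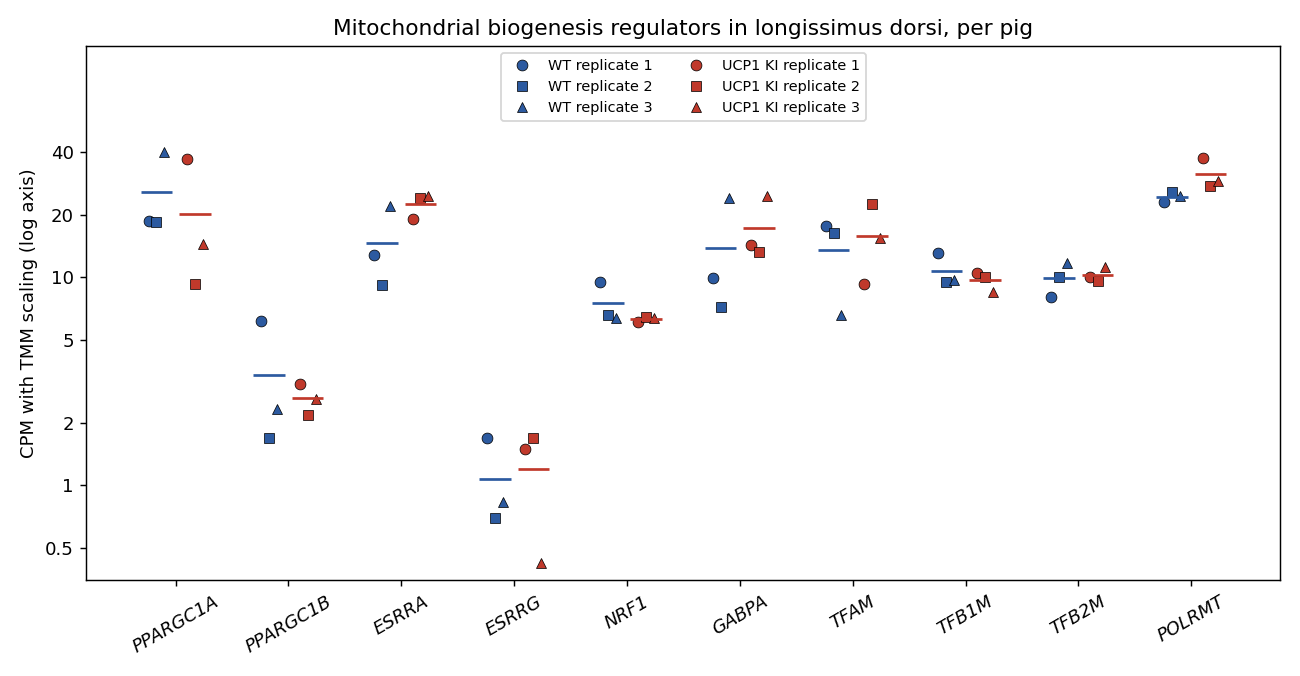
CPM with TMM scaling (log axis) of the 10 regulators in each pig, with WT pigs in blue and UCP1 KI pigs in red, the marker shape giving the replicate and the bar the mean of 3 pigs. *POLRMT* is the gene in which the 3 UCP1 KI pigs (27.5 to 37.7 CPM) lie above the 3 WT pigs (23.1 to 25.7 CPM).

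*PPARGC1A* (ENSSSCG00000029275), the main PGC-1 coactivator of muscle, spans 17841844 to 18527953 of chromosome 8 in Sscrofa11.1. It was measured at 37.0, 9.31 and 14.5 CPM in UCP1 KI replicates 1 to 3 and at 18.7, 18.4 and 40.2 CPM in WT replicates 1 to 3. High levels were thus seen in 1 pig of each genotype, and the groups overlapped across a 4.32-fold range, a wider range than in 76.6% of the genes tested. The means were 20.3 ± 14.7 CPM in knock-in animals and 25.8 ± 12.5 CPM in wild-type animals (SD, n = 3), and the log2 fold change was -0.35 (95% interval -1.62 to 0.92, adjusted p = 0.880 from edgeR). A two-sided exact permutation test over the pigs gave p = 0.5, where 0.1 is the smallest p that 3 pigs against 3 allow. The estimate rested on single pigs. Without UCP1 KI replicate 1 it was -1.11 (unadjusted p = 0.0489 in edgeR), past both limits, whereas it was 0.0062 without UCP1 KI replicate 2, and 0.13 when WT replicate 3 was left out. UCP1 KI replicate 2, the pig with the lowest *PPARGC1A*, also had the lowest summed level of 8 fast fibre genes, 17552 CPM beside 35963 to 90709 CPM in the other pigs, and the part of this in the result was not tested.

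*PPARGC1B* (ENSSSCG00000014437), the second PGC-1 coactivator, lies at 150823338 to 150924871 of chromosome 2 in Sscrofa11.1. Its levels of 3.07, 2.19 and 2.60 CPM in UCP1 KI pigs lay inside the spread of the WT pigs, which were at 6.17, 1.68 and 2.34 CPM. WT replicate 1 was thus the highest pig and WT replicate 2 the lowest, a 3.68-fold range within 1 genotype. The log2 fold change of -0.38 (95% interval -1.57 to 0.81, adjusted p = 0.857 from edgeR) turned to 0.38 without WT replicate 1. Both coactivators had means below those of WT pigs, and for neither was the difference larger than the spread between pigs.

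Of the estrogen-related receptors, the orphan nuclear receptors that bring PGC-1 to respiratory chain genes, *ESRRA* had the largest log2 fold change of the 10 regulators. *ESRRA* (ENSSSCG00000013028; chromosome 2, 7803504 to 7812868 in Sscrofa11.1) was at 19.2, 24.0 and 24.7 CPM in knock-in animals and at 12.9, 9.20 and 22.1 CPM in wild-type animals. The UCP1 KI pigs lay close together, and the overlap came from WT replicate 3, which stood above UCP1 KI replicate 1. Means of 22.6 ± 2.99 CPM and 14.7 ± 6.62 CPM (SD, n = 3) correspond to a 1.54-fold ratio and a log2 fold change of 0.62 (standard error 0.34, 95% interval -0.18 to 1.42). The p from edgeR was 0.111 before and 0.660 after adjustment, and the exact permutation test gave p = 0.2. It was above 0 in each fit with 1 pig left out, from 0.37 without WT replicate 2 to 1.04 without WT replicate 3, and in the latter fit it was called, with an unadjusted p of 0.00921 from edgeR. In the RefSeq annotation *ESRRA* overlaps *TRMT112*, a methyltransferase cofactor counted at 108 to 136 CPM in UCP1 KI pigs and 92.6 to 120 CPM in WT pigs. This overlap is of whole gene spans, and overlap of exons was not examined. The strand setting of the counting is not given in the sources used here, so how reads from a shared stretch were counted is not known.

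*ESRRG* (ENSSSCG00000010814; chromosome 10, 6710615 to 7371419 in Sscrofa11.1), the receptor of the same family that is known from slow, oxidative fibres, had the fewest counts of the 10. It had 46, 60 and 16 counts in the UCP1 KI animals and 61, 19 and 25 in the WT animals, which is 1.49, 1.68 and 0.424 CPM against 1.68, 0.694 and 0.834 CPM. Each genotype held both high and low pigs, and the log2 fold change of 0.15 had the widest 95% interval of the regulators, -1.30 to 1.61 (adjusted p = 0.955 from edgeR). It was -0.17 without UCP1 KI replicate 2, -0.077 without WT replicate 2 and -0.026 without UCP1 KI replicate 1. UCP1 KI replicate 3, the lowest pig for *ESRRG*, had a summed level of 7 slow fibre genes of 7483 CPM, and these sums ranged from 7483 to 12952 CPM in UCP1 KI pigs and from 4404 to 18406 CPM in WT pigs, without a test of their part in the result.

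The nuclear respiratory factors, transcription factors that bind the promoters of many respiratory chain genes, showed unlike spreads. *NRF1* (ENSSSCG00000016566; chromosome 18, 19008408 to 19142678 in Sscrofa11.1) was at 6.11, 6.45 and 6.36 CPM in knock-in animals and at 9.48, 6.61 and 6.41 CPM in wild-type animals. Apart from WT replicate 1, the pigs lay between 6.11 and 6.61 CPM, and the coefficient of variation was 2.77% in knock-in animals and 22.9% in wild-type animals. The log2 fold change of -0.25 (95% interval -0.86 to 0.36, adjusted p = 0.813 from edgeR) was -0.052 without WT replicate 1 and -0.021 with library size only.

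*GABPA* (ENSSSCG00000037655; chromosome 13, 189289513 to 189327501 in Sscrofa11.1), the DNA-binding subunit of nuclear respiratory factor 2, was at 14.3, 13.2 and 24.5 CPM in knock-in animals and at 9.92, 7.19 and 24.2 CPM in wild-type animals. The third replicate of each genotype was high, and the other pigs of the UCP1 KI group were above the other pigs of the WT group. Over all 6 pigs the log2 fold change was 0.33 (standard error 0.48, 95% interval -0.79 to 1.46, adjusted p = 0.869 from edgeR). Without WT replicate 3 it was 1.02 (unadjusted p = 0.0329 in edgeR) and was called, and without UCP1 KI replicate 3 it was 0.0062. *GABPA* overlaps the ATP synthase gene *ATP5PF* in the RefSeq annotation, where that gene is listed as *ATP5J*. *ATP5PF* was at 185, 100.1 and 162 CPM in knock-in animals and at 187, 210 and 217 CPM in wild-type animals, an order of pigs unlike that of *GABPA*. The 2 subunit genes that partner GABPA, *GABPB1* and *GABPB2*, had log2 fold changes of -0.18 and -0.41, with overlapping groups, and with library size only the former was at 0.063.

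**Figure D2:**
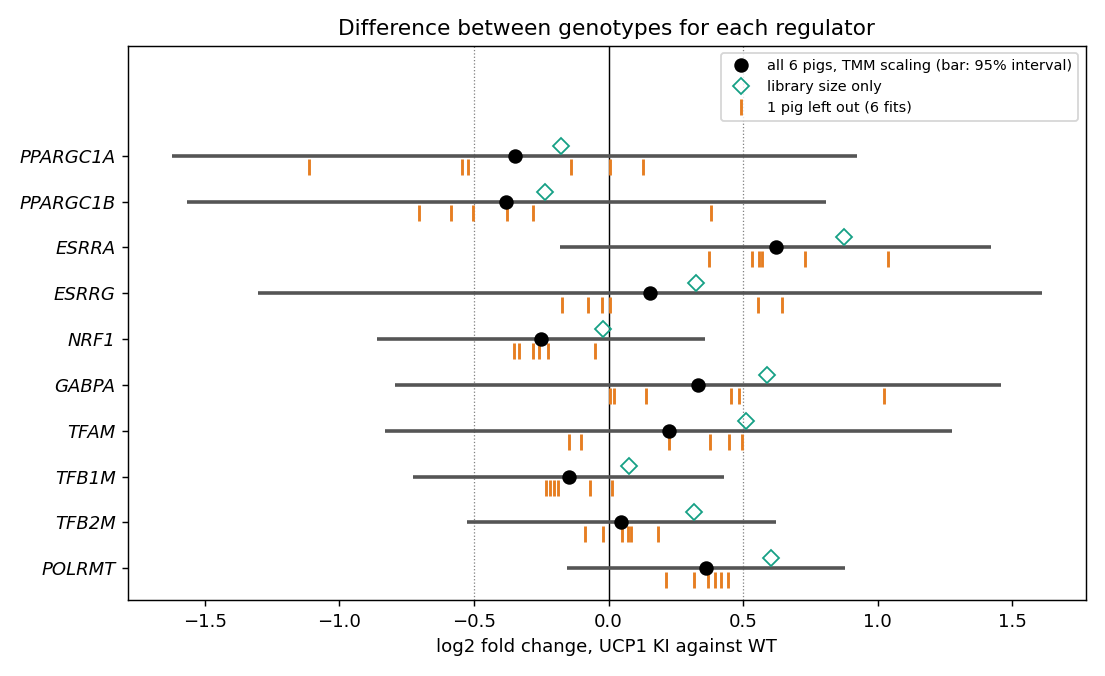
Log2 fold change of each regulator, UCP1 KI against WT, with all 6 pigs and TMM scaling (black, bar for the 95% interval), with library size only (open diamonds) and with 1 pig left out in turn (orange ticks), the dotted lines marking 0.5 in size. All 10 intervals include 0, and *ESRRA*, *NRF1*, *GABPA* and *POLRMT* kept their sign in each of the 6 fits with a pig left out.

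*TFAM* (ENSSSCG00000040185; chromosome 14, 92261713 to 92279731 in Sscrofa11.1) encodes the protein that packs mitochondrial DNA and opens its promoters. Levels were 9.35, 22.6 and 15.5 CPM in knock-in animals and 17.7, 16.3 and 6.61 CPM in wild-type animals, with the highest pig from one genotype and the lowest from the other. The means of 15.8 ± 6.62 CPM and 13.5 ± 6.05 CPM (SD, n = 3) gave a log2 fold change of 0.22 (95% interval -0.83 to 1.28, adjusted p = 0.905 from edgeR), which was -0.15 without UCP1 KI replicate 2, and -0.10 when WT replicate 3 was left out.

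*TFB1M* and *TFB2M* descend from rRNA methyltransferases. The former modifies the small ribosomal RNA of mitochondria, and the latter melts promoter DNA together with POLRMT. *TFB1M* (ENSSSCG00000024361; chromosome 1, 11566193 to 11650656 in Sscrofa11.1) was at 10.4, 10.1 and 8.56 CPM in knock-in animals and at 13.04, 9.495 and 9.68 CPM in wild-type animals, a log2 fold change of -0.15 (95% interval -0.73 to 0.43) that was 0.012 without WT replicate 1 and 0.074 with library size only. WT replicate 1 was the highest and UCP1 KI replicate 3 the lowest pig, and the same held for *TIAM2*, a gene that overlaps *TFB1M* in the annotation, at 12.5 CPM and 2.54 CPM in those pigs. *TFB2M* (ENSSSCG00000023775; chromosome 10, 19028813 to 19046343 in Sscrofa11.1) was at 9.99, 9.62 and 11.2 CPM in knock-in animals and at 8.08, 10.04 and 11.7 CPM in wild-type animals. This was the regulator closest to 0, with a log2 fold change of 0.047 (95% interval -0.53 to 0.62), which was -0.089 without WT replicate 1. Its range over the pigs, 1.45-fold, was the narrowest of the 10, and 7.33% of all genes tested had a smaller one.

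*POLRMT* (ENSSSCG00000035693; chromosome 2, 77694271 to 77708099 in Sscrofa11.1), the RNA polymerase of mitochondria, was at 37.7, 27.5 and 29.1 CPM in knock-in animals and at 23.1, 25.7 and 24.7 CPM in wild-type animals. Every UCP1 KI pig was above every WT pig, as was the case for 7.59% of all genes tested. The gap between the lowest UCP1 KI pig and the highest WT pig was small, and the UCP1 KI pigs were spread more widely, with SDs of 5.50 and 1.33 CPM around means of 31.5 and 24.5 CPM (n = 3). The log2 fold change of 0.36 (standard error 0.22, 95% interval -0.16 to 0.88) came with p = 0.145 before and 0.693 after adjustment in edgeR, and the exact permutation test gave p = 0.1, the smallest it can. It was between 0.21 and 0.44 with each pig left out, the lower value without UCP1 KI replicate 1, and 0.60 with library size only (unadjusted p of 0.0566 from edgeR).

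**Figure D3:**
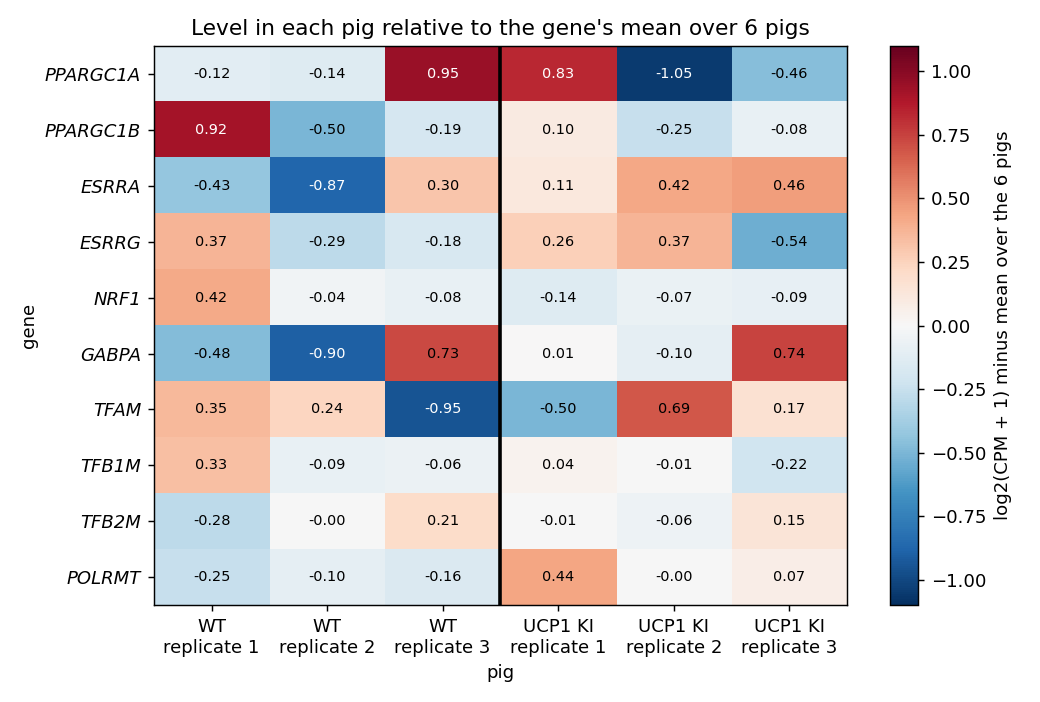
Level of each regulator in each pig as log2(CPM + 1) minus the gene's mean over the 6 pigs, with WT pigs on the left of the line and UCP1 KI pigs on the right. No pig was high or low for all 10 genes, and *PPARGC1A* and *TFAM* have their extremes in the same pigs with opposite sign, 0.95 and -0.95 in WT replicate 3 and -1.05 and 0.69 in UCP1 KI replicate 2.

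The regulators did not move as a block from pig to pig. WT replicate 1 was the highest pig for 3 of the 10 genes (*PPARGC1B*, *NRF1* and *TFB1M*) and the lowest for 2 (*TFB2M* and *POLRMT*). WT replicate 2 was above a gene's own mean for 1 of the 10 and the lowest pig for 3, and UCP1 KI replicate 1 was above the mean for 7. Among the 45 pairs of regulators, 0 had a Benjamini-Hochberg adjusted p under 0.05 in a two-sided exact permutation test of Pearson's r over the 6 pigs, and the smallest adjusted value was 0.422.

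The pair with the smallest p was *PPARGC1A* with *TFAM*, which ran in opposite directions. Pearson's r over the 6 pigs was -0.94 (exact permutation p = 0.0111, adjusted p = 0.422 over 45 pairs) and Spearman's rho was -0.77 (exact permutation p = 0.103, adjusted p = 0.578). Without the 2 pigs farthest from the median of *PPARGC1A*, r was -0.78. With each genotype centred on its own mean, r was -0.95, so the relation was also present once the difference between the genotypes was removed. *ESRRA* and *GABPA* ran together, with r = 0.86 (exact permutation p = 0.0319) and rho = 0.83 (exact permutation p = 0.0583). Here r fell to 0.35 without the 2 pigs farthest from the median of *ESRRA*, so its size depended on those pigs. With each genotype centred on its own mean, r was 0.90. *ESRRG* with *TFB1M* (r = 0.79, exact permutation p = 0.0319) and *TFB1M* with *TFB2M* (r = -0.87, exact permutation p = 0.0375) were the other pairs with an unadjusted p under 0.05. All 4 relations fail the adjustment over 45 pairs.

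Among 11302 other genes tested that have a symbol, *MRPL12* had the pattern most like that of *PPARGC1A* over the 6 pigs, with r = 0.99 on log2(CPM + 1). MRPL12 is a protein of the large mitochondrial ribosomal subunit that also binds POLRMT. Its levels were 74.8, 48.3 and 54.2 CPM in knock-in animals and 59.9, 56.6 and 80.8 CPM in wild-type animals, the same order of pigs as for *PPARGC1A*. The next were *SRL*, a protein of the sarcoplasmic reticulum, and *SMARCD3*, a chromatin remodelling subunit, with r = 0.97 and 0.96. In all, 42 genes had an r above 0.9 with *PPARGC1A*, 42 with *TFAM* and 333 with *ESRRA*. The genes most like *TFAM* were *SCPEP1*, *JADE2* and *CYP39A1* (r = 0.99, 0.98 and 0.98), and those most like *ESRRA* were *TUBG1*, *FOXK2* and *DNAJB6* (r = 0.997, 0.995 and 0.993). These values describe 6 pigs that share their libraries' composition, and they were picked as the highest of many.

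The regulators were also set against the transcripts of mitochondrial DNA itself, and these relations, like the pairs of regulators, were looked for after the values were seen. The summed level of the 13 mitochondrially encoded genes was 290626, 231230 and 193883 CPM in the UCP1 KI replicates 1 to 3 and 293261, 520842 and 243219 CPM in WT replicates 1 to 3. The pigs ranked by this sum were ranked in exactly the reverse order by *ESRRA* (rho = -1, exact permutation p = 0.00278, adjusted p = 0.0278 over 10 regulators). Adjusted p values here cover the relations of these 10 regulators to the sum alone. They leave out the pairs of regulators, and a joint adjustment was not made. Pearson's r on log2 values was -0.93 (exact permutation p = 0.00139, adjusted p = 0.0139), and both p values are the smallest that 6 pigs allow. It was -0.94 without the 2 pigs farthest from the median of *ESRRA*. It was also -0.94 within the UCP1 KI pigs and -0.91 within the WT pigs, 3 pigs each and not tested. With library size only r was -0.88 (exact permutation p = 0.0222) and rho -0.83. With only *ESRRA* scaled to the total without these 13 genes, and their sum left at TMM scaling, r was -0.95 (exact permutation p = 0.00556) and rho -0.94. Without WT replicate 2, with TMM scaling for both, r was -0.80 (5 pigs, exact permutation p = 0.0833). An r at or below that of *ESRRA* was found for 0.955% of all genes tested, 128 in number. For *GABPA* r was -0.84 (adjusted p = 0.0903, permutation), and for *TFAM* and *POLRMT*, whose products transcribe this DNA, it was 0.082 and -0.15 (adjusted p = 0.968 for both, permutation).

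**Figure D4:**
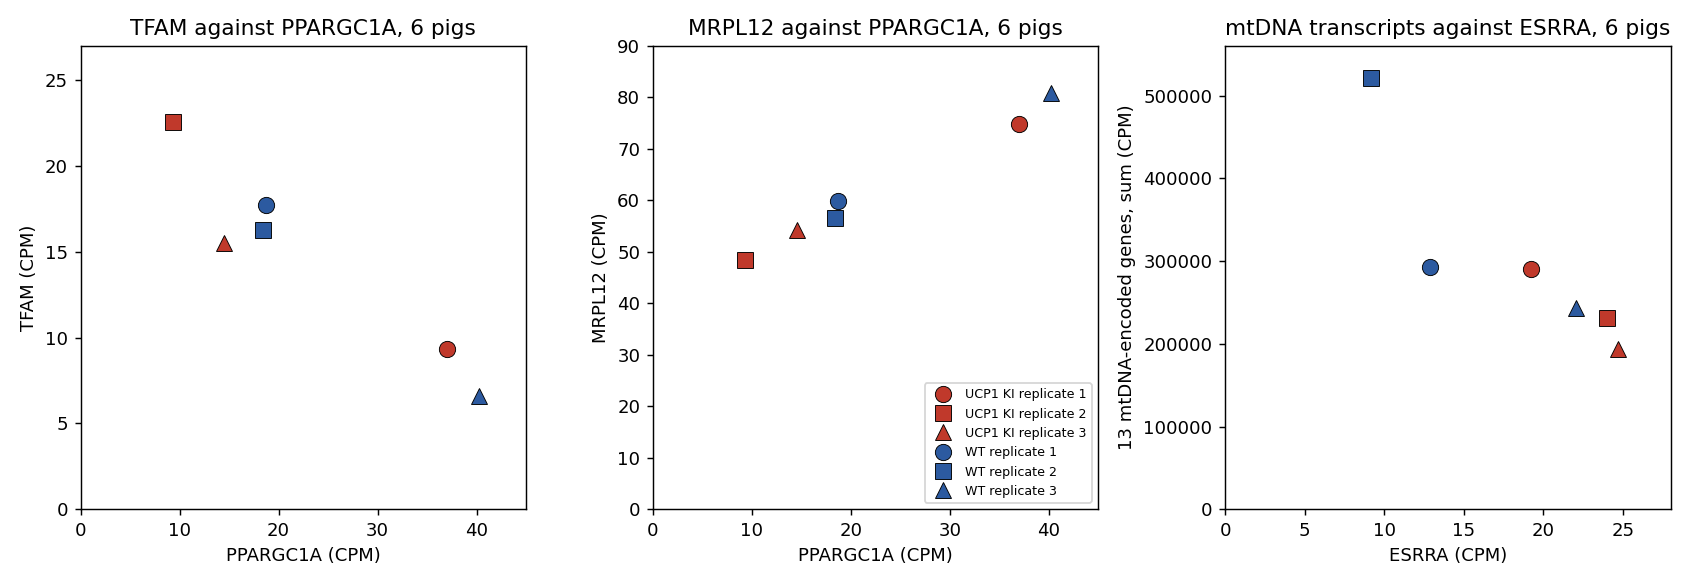
*TFAM* and *MRPL12* against *PPARGC1A*, and the summed level of the 13 genes of mitochondrial DNA against *ESRRA*, in CPM with TMM scaling, 1 point per pig, WT in blue and UCP1 KI in red. *TFAM* is highest (22.6 CPM) where *PPARGC1A* is lowest (9.31 CPM) and lowest (6.61 CPM) where it is highest (40.2 CPM), *MRPL12* runs the other way, and *ESRRA* is lowest (9.20 CPM) in the pig with the highest sum, WT replicate 2.

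Other genes of the pathway were taken from 5 lists with 108 entries, of which 103 genes were tested and 5 were called, 3 as higher and 2 as lower in UCP1 KI pigs. This is 4.85% of those tested, beside 8.19% of all genes. With adjustment over all genes, 0 of the 103 had an adjusted p under 0.05 in edgeR (smallest 0.583), and 5 had an unadjusted p under 0.05. DESeq2 on the same genes called 8 at the same limits.

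The list of coactivators, nuclear receptors and their regulators held 4 of the 5 calls among 26 genes tested, with a median log2 fold change of 0.10. *FOXO1*, a forkhead factor that PGC-1α can coactivate and that drives fasting and atrophy genes, was higher in UCP1 KI pigs, at 46.3, 68.0 and 85.6 CPM against 21.1, 27.8 and 38.4 CPM. The groups did not overlap, and edgeR gave a log2 fold change of 1.20 with a standard error of 0.33, an unadjusted p of 0.00683 and an adjusted p of 0.583. *FNIP1*, a partner of folliculin that binds AMP-activated protein kinase, was lower, at 8.12, 8.25 and 7.02 CPM against 66.9, 38.6 and 9.88 CPM. The UCP1 KI pigs were nearly alike, whereas the WT pigs ranged widely and WT replicate 3 was close to the UCP1 KI pigs. It had a log2 fold change of -2.30 (standard error 0.60) and an unadjusted p of 0.00558 from edgeR, and with a pig left out the value nearest to 0 was -1.65. *FOXO1* and *FNIP1* were called in each of the 12 alternative analyses.

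*RXRB*, a retinoid X receptor that pairs with other nuclear receptors, and *CRTC2*, a coactivator of CREB, a known regulator of the *PPARGC1A* promoter, were called by a small margin. *RXRB* was at 19.7, 18.0 and 23.9 CPM against 13.5, 11.3 and 16.2 CPM, a log2 fold change of 0.59 with an unadjusted p of 0.0449 from edgeR. *CRTC2* was at 24.4, 26.7 and 26.7 CPM against 15.8, 21.0 and 17.8 CPM, a log2 fold change of 0.51 with an unadjusted p of 0.0492 from edgeR. *RXRB* was called in 6 of the 12 alternative analyses and *CRTC2* in 4. *PPRC1*, the third member of the PGC-1 family, and *YY1*, a factor that works with PGC-1α, had log2 fold changes of 0.15 and -0.0059 with overlapping groups, the latter at 0.26 with library size only. *SIRT1*, a deacetylase of PGC-1α, was at 11.6, 11.6 and 11.5 CPM in knock-in animals and at 16.9, 14.1 and 12.7 CPM in wild-type animals. Its groups did not overlap, but it was not called (log2 fold change -0.33, adjusted p = 0.706 in edgeR, and -0.094 with library size only). It was 1 of 5 genes of this list of 26 without overlap, the others being the 4 that were called, beside 15.3% of all genes tested.

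Of 23 genes of mitochondrial transcription and RNA processing, 0 were called, with a median log2 fold change of 0.080. They lay between *SLIRP*, an RNA-binding partner of LRPPRC, at -0.59 (56.7 ± 12.4 against 85.7 ± 24.2 CPM, SD, n = 3) and *ELAC2*, which cuts tRNA ends, at 0.66 (24.9 ± 7.11 against 15.7 ± 4.22 CPM, SD, n = 3). Unadjusted p values from edgeR were 0.0822 and 0.0620, and *ELAC2* was called in 3 of the 12 alternative analyses. Of 17 genes of mitochondrial DNA replication and maintenance, 0 were called, with a median of 0.21, and the replicative polymerase *POLG* was at 0.21. *LIG3*, a DNA ligase, had the highest value at 0.37. *TOP1MT*, the mitochondrial topoisomerase, had the lowest at -2.39, from counts of 2, 0 and 13 in knock-in animals and 19, 36 and 12 in wild-type animals, with 2 of the UCP1 KI libraries under the limit of 3 counts, and it was called in 2 of the 12 alternative analyses.

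Known PGC-1 and estrogen-related receptor targets in muscle numbered 24 among the genes tested, and 0 were called. Their median log2 fold change was -0.14, beside -0.02 over all genes tested. With library size only it was 0.073, beside 0.24 over all genes. Its sign thus changed with the scaling, but it lay below the median of all genes with either. With 1 pig left out it was between -0.35 and 0.038. The range ran from *UCP3*, an uncoupling protein of muscle, at -0.67 to *IDH3A*, a subunit of a citric acid cycle dehydrogenase, at 0.45. *ACADM* and *HADHA*, enzymes of fatty acid β-oxidation, were at 0.41 and 0.42 with every UCP1 KI pig above every WT pig, and *MFN1*, a protein of mitochondrial fusion, was at -0.38 with every UCP1 KI pig below. These were the 3 of 24 targets whose groups did not overlap, beside 15.3% of all genes tested, a share near the background. Of these 3 genes, 0 had an unadjusted p under 0.1 in edgeR, and *ACADM* was called with library size only (log2 fold change 0.70, unadjusted p of 0.0299). With that scaling *HADHA* was at 0.65 and *MFN1* at -0.13, and neither was called.

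The 13 genes encoded by mitochondrial DNA had a median log2 fold change of -0.58, and 11 of the 13 were below 0. *ND4L*, a complex I subunit, was called as lower, at 1375, 2186 and 1592 CPM in knock-in animals and 2256, 6308 and 2605 CPM in wild-type animals (log2 fold change -1.12, unadjusted p of 0.0488 from edgeR). Every UCP1 KI pig was below every WT pig for 3 of the 13, *ND4L*, *ND4* and *ND5*. Groups did not overlap, in either direction, for 15.3% of all genes tested. *ND4* and *ND5* (log2 fold changes -0.81 and -0.97) were not called in edgeR, and DESeq2 on the same genes called all 3. WT replicate 2 stood far above the other pigs, and the median of the list was -0.14 without it. *ND4L* was not called with library size only, with the replicate number as a block or without UCP1 KI replicate 1, UCP1 KI replicate 3 or WT replicate 2. *ATP8* had the highest value at 0.39, which was -0.63 without UCP1 KI replicate 1, the pig with 2117 CPM beside 448 to 1025 CPM in the others. The group sums overlapped (two-sided exact permutation test, p = 0.2).

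**Figure D5:**
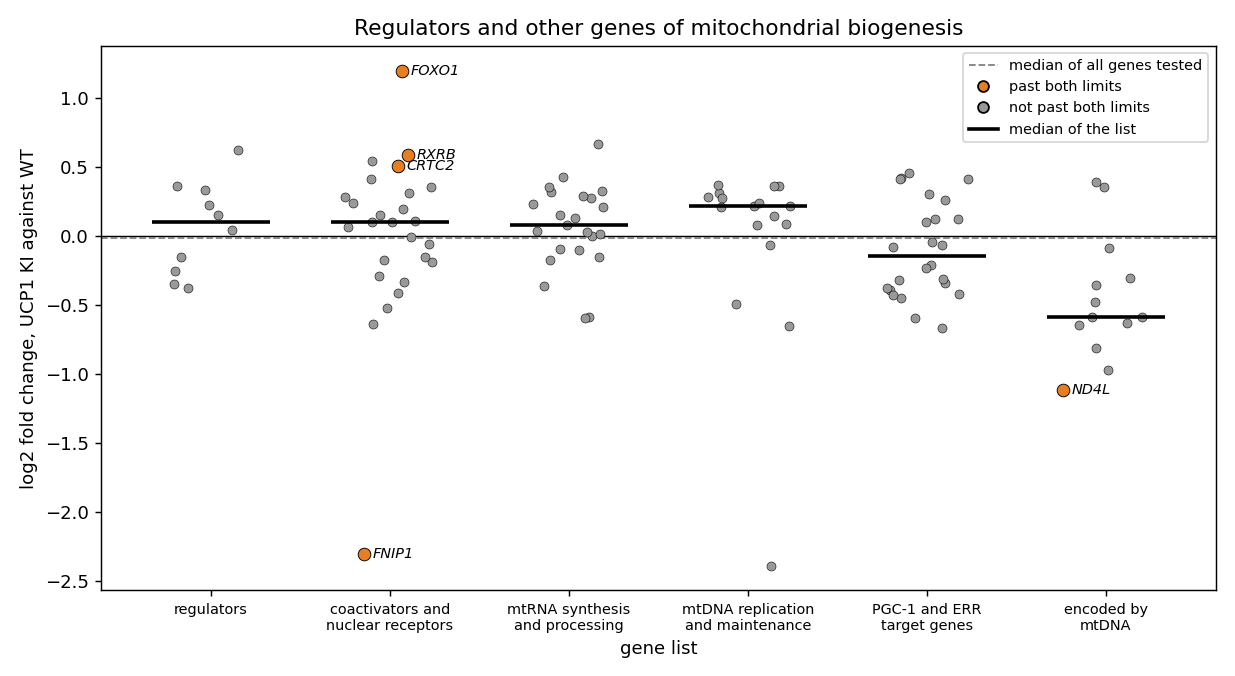
Log2 fold change of every tested gene of the 10 regulators and of 5 lists of related genes, 1 point per gene, with called genes in orange, a black bar for the median of each list and a dashed line for the median of all genes tested. The regulators spread between -0.38 and 0.62 with no called gene, and the genes of mitochondrial DNA have the lowest median, -0.58.

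Markers of the tissue and of other cells were read beside these values. Muscle genes such as *ACTA1* and *CKM* were abundant in every pig, with 59080 to 101220 CPM over 5 genes. Of 8 fast and 7 slow fibre genes, 0 were called, with sums that overlapped between the genotypes. The fast fibre genes leaned lower in UCP1 KI pigs, with 1 of 8 above 0 and a median log2 fold change of -0.58. This median lay between -0.92 and -0.18 with 1 pig left out. Of the slow fibre genes 6 of 7 were above 0, with a median of 0.15 that was -0.21 in the lowest fit with 1 pig left out. *MYH1*, *MYH2*, *MYH4* and *MYLPF* (fast) and *MYH7* and *TPM3* (slow) had no pig identifier and were not read. Of 6 fibroblast genes 4 were called as lower in UCP1 KI pigs, with sums of 235 to 435 CPM against 742 to 1187 CPM. Adipocyte (158 to 205 against 123 to 330 CPM), endothelial (304 to 552 against 271 to 518 CPM) and leukocyte (22.5 to 65.4 against 21.2 to 41.6 CPM) sums overlapped, each list with 1 gene called as higher (*LIPE*, *TEK* and *CD3E*). *LIPE*, a lipase at a log2 fold change of 1.121, went against most of its list, since 4 of the 6 adipocyte genes tested were below 0 with overlapping groups (*ADIPOQ* at -1.26, *FABP4* at -1.22, *PLIN1* at -1.13 and *CIDEC* at -0.80) and the median was -0.96. The medians were 0.15 for the endothelial and 0.65 for the leukocyte genes. Red blood cell sums were 11.42 to 75.8 CPM against 104 to 179.5 CPM with 0 genes called, Schwann cell sums 24.2 to 41.5 against 19.3 to 53.6 CPM, and brown adipocyte sums 7.89 to 13.5 against 8.98 to 19.3 CPM, with *LHX8* at 0 in every pig and *ZIC1* at 0 in 5 of 6. In bulk muscle, fewer cells of a type and less RNA per cell cannot be told apart, and the part of these cells in the values of the regulators was not tested.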

How the data were processed

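RNA of 6 longissimus dorsi samples was sequenced by the authors as paired ends. The authors used FastQC 0.11.2, Trimmomatic 0.36, HISAT2 2.0, bedtools 2.26.0, StringTie 1.3.3b and DESeq2 1.12.4, and the submitters' processing notes name the build Sscrofa11.1. The counting program, annotation release and strand setting are not given in the sources used here. The authors deposited raw counts per gene without normalization, and 0 columns were left unused. Gene symbols were looked up by Ensembl identifier, and positions and overlaps from the RefSeq annotation of Sscrofa11.1, matched by symbol. Protein and promoter sequences were not used here.

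Counts were fitted in R 4.3.3 with edgeR 4.0.16 (filterByExpr, TMM factors, genotype as the only term, two-sided quasi-likelihood F test) and adjusted by Benjamini-Hochberg over all 13402 genes tested. Intervals use the moderated degrees of freedom, and standard errors are the log2 fold change over the root of F. Exact permutation tests used log2(CPM + 1). Limits of 3 counts cover counting error only. The p values from edgeR set a difference between genotypes against the spread between these pigs, moderated across genes. Exact permutation p values are the share of reassignments of the pigs with a difference or correlation at least as large in size. Alternatives were DESeq2 1.42.0, other scalings and filters, the replicate block and each pig left out. The code was also run on counts simulated from the same fitted model. The planted differences were larger than those of the regulators, so this run does not show how well differences of their size are found. The regulators and lists were chosen with earlier results of these data known. All regulators are named, and from each list the called genes and the highest and lowest values. Other list genes (*PPRC1*, *YY1*, *GABPB1*, *GABPB2*, *SIRT1*, *POLG*, *ACADM*, *HADHA*, *MFN1*, *ND4* and *ND5*) were added after their values were seen, for their role or for groups without overlap.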

Additional observations from a re-analysis of the deposited data

How the results depend on the processing

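The count of 0 called regulators held in the 6 alternatives with all pigs (median-of-ratios factors, library size only, both filters, DESeq2 and the replicate block), with no fold change limit and with adjusted p values, and lay between 0 and 2 with 1 pig left out, where *PPARGC1A* was called when UCP1 KI replicate 1 was absent, and *ESRRA* and *GABPA* when WT replicate 3 was. Over all genes, 1097 calls became 678 to 1541 with a pig left out (678 without UCP1 KI replicate 2, 718 when WT replicate 2 was absent) and 0 at an adjusted p under 0.05. DESeq2 on the same genes gave 127 genes at that adjusted limit, and edgeR 0. The 5 calls among the pathway lists became 3 with all genes with any count, 8 with DESeq2, 0 at an adjusted p under 0.05, and 3 to 7 with a pig left out. Library size only moved the median of all genes from -0.02 to 0.24 and the share of higher calls from 46.9% to 82.7%.

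Of 120 values of the regulators under the 12 alternatives, 105 kept direction and side of the limits, 3 passed the limits and 12 changed sign. *TFB1M* was at 0.0743 with library size only. Leaving out 1 pig gave -1.11 to 0.13 for *PPARGC1A*, -0.70 to 0.38 for *PPARGC1B*, 0.37 to 1.04 for *ESRRA*, -0.17 to 0.65 for *ESRRG*, 0.0062 to 1.02 for *GABPA*, -0.15 to 0.50 for *TFAM*, -0.23 to 0.0117 for *TFB1M* and -0.0888 to 0.19 for *TFB2M*. The cause was not tested. The relation of *ESRRA* to mitochondrial transcripts and its alternatives were added after seeing the data, and r was -0.80 without WT replicate 2.

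With the replicate block, 0 regulators, 1114 genes and 4 pathway genes were called. The correlations of same-numbered pigs' deviations from their group means were 0.0038, 0.094 and 0.28, and those of unlike-numbered pigs lay between -0.20 and 0.13. The value of the third replicates, 0.28, was thus the highest. The labels give replicate numbers only, so the numbers were not read as a pairing. Whether same-numbered pigs were handled together was not tested. *ESRRG*, with 16 to 61 counts per pig, had the largest standard error of the regulators (0.63), but *PPARGC1A*, with 332 to 1206 counts, had one of 0.55, and the part of depth in these errors was not tested.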
